A study of Homo sapiens with 6 samples.

Results

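The genes encoded by the mitochondrial genome were compared between melanoma cells with an empty vector and cells with an HDAC8 vector. The members are all rows of the gene table whose symbol starts with MT-, which gave 37 of 60504 genes. They comprise 13 protein genes, 2 rRNA genes and 22 tRNA genes. Of these, 28 lie on the plus strand of the reference sequence and 9 on the minus strand, the latter being MT-ND6 and 8 tRNA genes.

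RNA-seq was performed on the human melanoma line WM164, which has the BRAF V600E change. The EV group (empty expression vector) and the HDAC8 group (vector for HDAC8, a class I histone deacetylase) had 3 libraries each, numbered as biological replicates, and no drug treatment is given for either. According to the methods of the study both plasmids were transfected with Lipofectamine and both groups kept under hygromycin, which WM164 cells of each group therefore share. That the numbered replicates came from separate cultures is not stated beyond this numbering, so p-values measure the spread between these libraries. The 6 libraries held between 34741083 and 42041462 counts.

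The human mitochondrial genome is a small circle read on both strands into long precursor RNAs. The tRNAs lie between most of the other genes and are cut out by RNase P and ELAC2, which frees the mRNAs and rRNAs. The mRNAs, most of which receive a short poly(A) tail, code for core subunits of respiratory chain complexes I, III and IV and of ATP synthase (complex V), while the other subunits of these complexes and all factors that transcribe, cut and stabilise the RNA are encoded in the nucleus. In melanoma, oxidative phosphorylation is known to vary between cell states and with the response to BRAF inhibition.

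Transcripts of HDAC8 itself did not separate the groups, so they do not serve as a check of the labels. Normalized counts (counts divided by the DESeq2 size factor of the library) of HDAC8 were 383.8, 404.4 and 478.8 in EV 1 to 3 and 484.8, 445.5 and 473.7 in the libraries labelled HDAC8 1 to 3. HDAC8 against EV came to 0.15 (SE 0.28) on the log2 scale, with a DESeq2 adjusted p of 0.856. All 8 melanocyte markers had enough counts to be tested. Their summed normalized counts, mostly PMEL, were 244961 to 328760 in EV and 137043 to 182218 in HDAC8. Of the melanocyte markers 5 were called lower, with or without HDAC8 1, against 5.44% and 6.65% of all genes. The called ones were MLANA (-4.84 on the log2 scale), TYR (-1.60), DCT (-1.08), PMEL (-0.86) and S100B (-0.66). MITF (-0.20 on the log2 scale), SOX10 (-0.33) and TYRP1 (-2.76) were not called. The sum of 6 fibroblast markers, mostly LUM, was 2347 to 2869 in EV and 1150 to 2188 in HDAC8. LUM itself was not called (-0.60 on the log2 scale, DESeq2 adjusted p = 0.0778). The sum of 6 leukocyte markers, mostly CD68, was 2372 to 3355 in EV and 4322 to 6279 in HDAC8. PTPRC had at most 3 counts in a library, and CD3E had none in EV and 92, 89 and 46 in HDAC8. Of 4 leukocyte markers tested, CD68 (0.92 on the log2 scale) and CD3E (8.66) were called higher, with or without HDAC8 1. This stands against 5.57% and 5.34% of all genes, and LYZ and CD14 were not called. Sums of 5 endothelial and 6 keratinocyte markers overlapped between the groups (97.5 to 263.4 and 165.5 to 303.4 over all libraries). The melanocyte, fibroblast and leukocyte sums moved with the condition, and their part in the results below was not tested. In bulk libraries, fewer cells of a kind and less RNA per cell cannot be told apart.

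The library HDAC8 1 stood apart from the other 5 in several noncoding RNAs. Its normalized count of the mitochondrial 16S rRNA was 61.5-fold below the lowest of the other 5 libraries, and that of the 12S rRNA 15.3-fold below. At the same time SNORD3A (the U3 small nucleolar RNA) was 6.44-fold, SCARNA2 3.56-fold and RN7SL1 (the RNA of the signal recognition particle) 1.81-fold above the highest of the others, while the RNAs RMRP and RPPH1 lay within their range. A set of 20 nuclear RNAs, histone genes among them, was listed as lacking poly(A), which was not tested in these cells. The set made up 0.736%, 0.971% and 0.677% of the counts in EV and 1.59%, 0.421% and 0.426% in HDAC8. HDAC8 1 was the highest and the other HDAC8 libraries were the lowest of the 6. Of 18 of these RNAs tested, 17 had an adjusted p and 3 were called lower, against 5.44% of all genes. These 3 were RMRP (-1.09), the RNA of RNase MRP, and the linker histone genes HIST1H1D (-1.10) and HIST1H1C (-0.59). Without HDAC8 1 the number called lower was 8, against 6.65% of all genes. Whether poly(A) RNA was selected or rRNA removed is not given in the sources used here. The part of this difference in any result was not tested, and values without HDAC8 1 stand beside the results.

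Mitochondrially encoded transcripts took a smaller share of all counts in the HDAC8 libraries than in the EV libraries. The share was 9.66%, 10.2% and 12.8% in EV (10.9% ± 1.69, SD, n = 3) and 4.46%, 7.94% and 7.63% in HDAC8 (6.68% ± 1.93, SD, n = 3). Every HDAC8 library was below every EV library, also when HDAC8 1 was left out. The difference of the means was -4.23 percentage points, or -3.12 without HDAC8 1, and the exact permutation test (two-sided) gave p = 0.10, the smallest that 3 against 3 libraries can give.

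Nearly all of this share belonged to the protein genes. They took 9.35%, 9.72% and 11.9% of all counts in EV and 4.45%, 7.27% and 7.31% in HDAC8, again without overlap (difference -3.99 percentage points, -3.04 without HDAC8 1, exact permutation p = 0.10). The rRNA genes took 0.309%, 0.504% and 0.908% in EV and 0.0111%, 0.672% and 0.321% in HDAC8, where the groups overlapped (exact permutation p = 0.50). The tRNA genes gave next to no counts. Over all 6 libraries they summed to 53 counts, 15 of the 22 had none in any library, which allows up to 3 counts per library for each, and the highest single value was 10 (MT-TA, EV 2). The tRNAs are 59 to 75 bases long, and their levels were not compared.

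**Figure D1:**
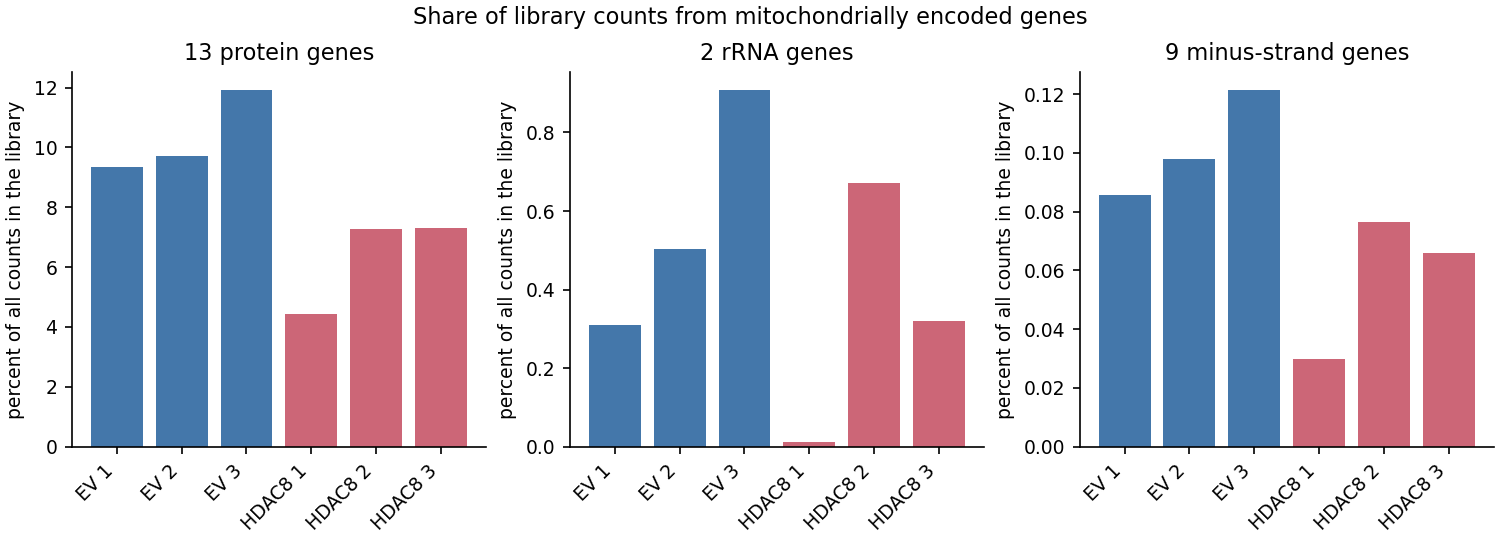
Percent of all counts per library (vertical axis), with 1 bar for each library and panels for the 13 protein genes, the 2 rRNA genes and the 9 minus-strand genes. Protein genes of the 3 HDAC8 libraries sit at 4.45% to 7.31%, below the EV range of 9.35% to 11.9%, whereas the rRNA ranges overlap.

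By strand, both sets of genes were lower. The plus strand took 9.57%, 10.1% and 12.7% in EV and 4.43%, 7.86% and 7.57% in HDAC8 (difference -4.18 percentage points, -3.09 without HDAC8 1). The minus strand, in practice MT-ND6, took 0.0857%, 0.0979% and 0.121% in EV and 0.0297%, 0.0763% and 0.0660% in HDAC8 (difference -0.0443 percentage points, -0.0305 without HDAC8 1, exact permutation p = 0.10, no overlap). As a share of the mitochondrial counts alone, the minus strand made up 0.888%, 0.958% and 0.946% in EV and 0.667%, 0.962% and 0.865% in HDAC8, where the groups overlapped (exact permutation p = 0.40). Whether reads were counted by strand is not given in the sources used here, so reads from the opposite strand of MT-ND6 cannot be told apart from its own.

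In the fit across all genes, 9 of the 13 protein genes fell and none rose. All 13, both rRNAs and 2 of the 22 tRNAs, together 17 of the 37 members, had enough counts to enter this fit. Calls required a log2 fold change of at least 0.58 in either direction with a DESeq2 adjusted p under 0.05, and 5.44% of all genes with an adjusted p were called lower, 5.57% higher and 11.0% in either direction. The median log2 fold change of the 13 was -0.82, against -0.00 over all 26162 genes tested. Without HDAC8 1, 5 genes were called (MT-CO3, MT-ND3, MT-ND4L, MT-ND4 and MT-CYB), with 6.65% of all genes called lower and 5.34% higher, and the median was -0.63, against -0.07 over all genes. For 12 of the 13, every HDAC8 library was below every EV library, which held for 12.7% of all genes tested (24.0% did not overlap in either direction, and for 18.1% HDAC8 2 and 3 were both below every EV library). The exception was MT-ND1. All 13 had their lowest value in HDAC8 1.

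The subunits of cytochrome c oxidase (complex IV), which passes electrons to oxygen, were among the transcripts that fell. MT-CO1 (ENSG00000198804, chromosome M, 5904 to 7445, plus strand) codes for the catalytic subunit and had the highest level per length of all members. Its normalized counts were 1378400, 1458460 and 1677750 in EV and 590579, 1164920 and 1147110 in HDAC8. Every HDAC8 library was lower, HDAC8 1 most of all. This was a log2 difference of -0.64 (SE 0.20) with a DESeq2 adjusted p of 0.016. Without HDAC8 1 it was -0.38, under the size threshold, without EV 3 it was -0.56 and not called (DESeq2 adjusted p = 0.148), and edgeR did not call it (adjusted p = 0.0566). MT-CO2, the subunit that takes electrons from cytochrome c, was at 303917, 380970 and 418631 in EV and 148465, 260289 and 235711 in HDAC8, a log2 fold change of -0.78 (SE 0.19) that shrank to -0.57 without HDAC8 1, just under the size threshold. MT-CO3, a structural subunit, fell by 0.85 (SE 0.18) on the log2 scale and by 0.63 without HDAC8 1, and was called in both.

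MT-CYB (ENSG00000198727, 14747 to 15887, plus strand) codes for cytochrome b, the one subunit of complex III that the mitochondrial genome encodes. Its normalized counts were 260700, 311419 and 380017 in EV and 120888, 183716 and 194472 in HDAC8. The groups were separated by a gap, and HDAC8 stood at 52.4% of EV, or 59.6% without HDAC8 1. On the log2 scale MT-CYB fell by 0.93 (SE 0.18), with a DESeq2 adjusted p of 8.71e-06, and by 0.75 without HDAC8 1.

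Complex I, which oxidises NADH, takes 7 members, of which 4 were called lower. MT-ND4 (ENSG00000198886, 10760 to 12137, plus strand), a membrane subunit, was at 497811, 552223 and 776467 in EV and 207579, 372152 and 371892 in HDAC8. It had the lowest log2 fold change of the 13 protein genes, -0.94 (SE 0.21, adjusted p by DESeq2 1.21e-04), and -0.71 without HDAC8 1. Without HDAC8 2 it was not called (-1.07, DESeq2 adjusted p = 0.0572). MT-ND3, MT-ND4L and MT-ND5, further membrane subunits, fell by 0.82 (SE 0.19), 0.69 (SE 0.14) and 0.78 (SE 0.18) on the log2 scale. Without HDAC8 1, MT-ND3 (-0.64) and MT-ND4L (-0.67) were still called and MT-ND5 was not (-0.65, DESeq2 adjusted p = 0.0908). MT-ND5 was also under the size threshold without EV 3 (-0.56).

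MT-ND2 and MT-ND6 had fold changes of the same size but did not pass the test. MT-ND2 (ENSG00000198763, 4470 to 5511, plus strand) was at 141764, 150657 and 216003 in EV and 59338, 114322 and 113987 in HDAC8, a log2 difference of -0.82 (SE 0.34) at a DESeq2 adjusted p of 0.0935, and of -0.57 without HDAC8 1. MT-ND6 (ENSG00000198695, 14149 to 14673), the protein gene of the minus strand, was at 31413, 38410 and 47955 in EV and 10631, 29360 and 24961 in HDAC8, with -0.86 (SE 0.42, 95% interval -1.67 to -0.04, adjusted p = 0.178). In both genes the groups did not overlap, and HDAC8 1 lay far under the other HDAC8 libraries. Without HDAC8 1, MT-ND6 had -0.53 with a DESeq2 adjusted p of 0.00197, under the size threshold.

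MT-ND1 (ENSG00000198888, 3307 to 4262, plus strand), the complex I subunit next to the site where ubiquinone binds, was the protein gene with the smallest difference. Its normalized counts were 104183, 130668 and 165930 in EV and 95360, 133943 and 138287 in HDAC8, so that the ranges overlapped. It did not pass the test, at -0.12 on the log2 scale (SE 0.18, 95% interval -0.48 to 0.23, DESeq2 adjusted p = 0.787) and 0.03 without HDAC8 1. HDAC8 stood at 91.7% of EV, whereas the other 12 protein genes stood at 52.1% to 64.3%.

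Both mitochondrial genes of ATP synthase lie within 1 bicistronic mRNA. MT-ATP6 (ENSG00000198899, 8527 to 9207), the subunit that forms the proton channel, was at 136489, 160692 and 224855 in EV and 76236, 107370 and 106375 in HDAC8, and fell by 0.85 (SE 0.18) on the log2 scale at a DESeq2 adjusted p of 8.89e-05. Without HDAC8 1 it was -0.71 and not called (DESeq2 adjusted p = 0.0697). MT-ATP8 (ENSG00000228253, 8366 to 8572), a small membrane subunit, was at 8373, 9875 and 12043 in EV and 2435, 7417 and 7051 in HDAC8. Its fold change was as large (-0.84, SE 0.50) with a wider interval (-1.82 to 0.13), and it was not called (adjusted p = 0.313). Without HDAC8 1 it was -0.48, under the size threshold.

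The reading frames of MT-ATP8 and MT-ATP6 share 46 bases, where a read cannot be given to either gene on its own. The stretch is shown because it makes up a large part of the short MT-ATP8. It lies at chrM:8527-8572, plus strand, and the sequence was taken from the transcripts of GENCODE release 44 (GRCh38). The first capitals mark the start codon of MT-ATP6 and the last the stop codon of MT-ATP8.
MT-ATP8/MT-ATP6: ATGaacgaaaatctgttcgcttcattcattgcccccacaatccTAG
MT-ND4L and MT-ND4, which also lie on 1 bicistronic mRNA, share 7 bases (atgctaa, chrM:10760-10766). The count ratio of MT-ATP8 to MT-ATP6 was 0.0613, 0.0615 and 0.0536 in EV and 0.0319, 0.0691 and 0.0663 in HDAC8, and that of MT-ND4L to MT-ND4 was 0.0317, 0.0363 and 0.0274 in EV and 0.0544, 0.0338 and 0.0306 in HDAC8. In both pairs HDAC8 1 had the extreme value, in opposite directions.

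**Figure D2:**
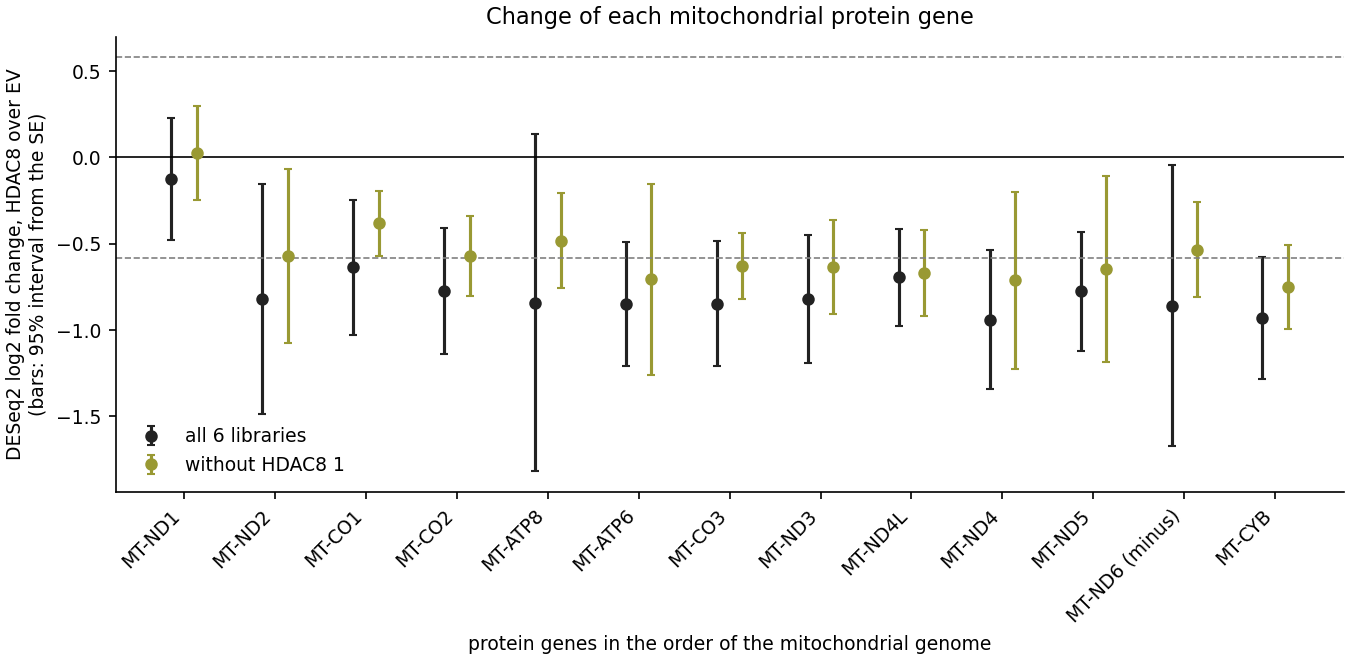
Log2 fold changes of HDAC8 over EV (vertical axis) for the 13 protein genes in genome order, with bars for 95% intervals, from all 6 libraries and without HDAC8 1, and dashed lines at the size threshold of 0.58 in each direction. The protein genes other than MT-ND1 lie between -0.94 and -0.64 over all libraries, and MT-ND1 lies near 0.

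The rRNAs of the mitochondrial ribosome varied widely within both groups. MT-RNR2 (16S rRNA, ENSG00000210082, 1671 to 3229) was at 69618, 117365 and 219645 normalized counts in EV and 1132, 161674 and 76562 in HDAC8. MT-RNR1 (12S rRNA, ENSG00000211459, 648 to 1601) was at 43630, 80438 and 139205 in EV and 2857, 96914 and 44767 in HDAC8. For both, HDAC8 2 and 3 lay inside the EV range and HDAC8 1 far under it. The log2 fold changes were -0.76 (SE 1.43, 95% interval -3.57 to 2.05) and -0.87 (SE 1.19, -3.20 to 1.47), and neither passed the test (DESeq2 adjusted p = 0.853 and 0.776). Without HDAC8 1 they were -0.19 and -0.31. The ratio of 16S to 12S counts was 1.60, 1.46 and 1.58 in EV, 1.67 and 1.71 in HDAC8 2 and 3, and 0.396 in HDAC8 1.

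**Figure D3:**
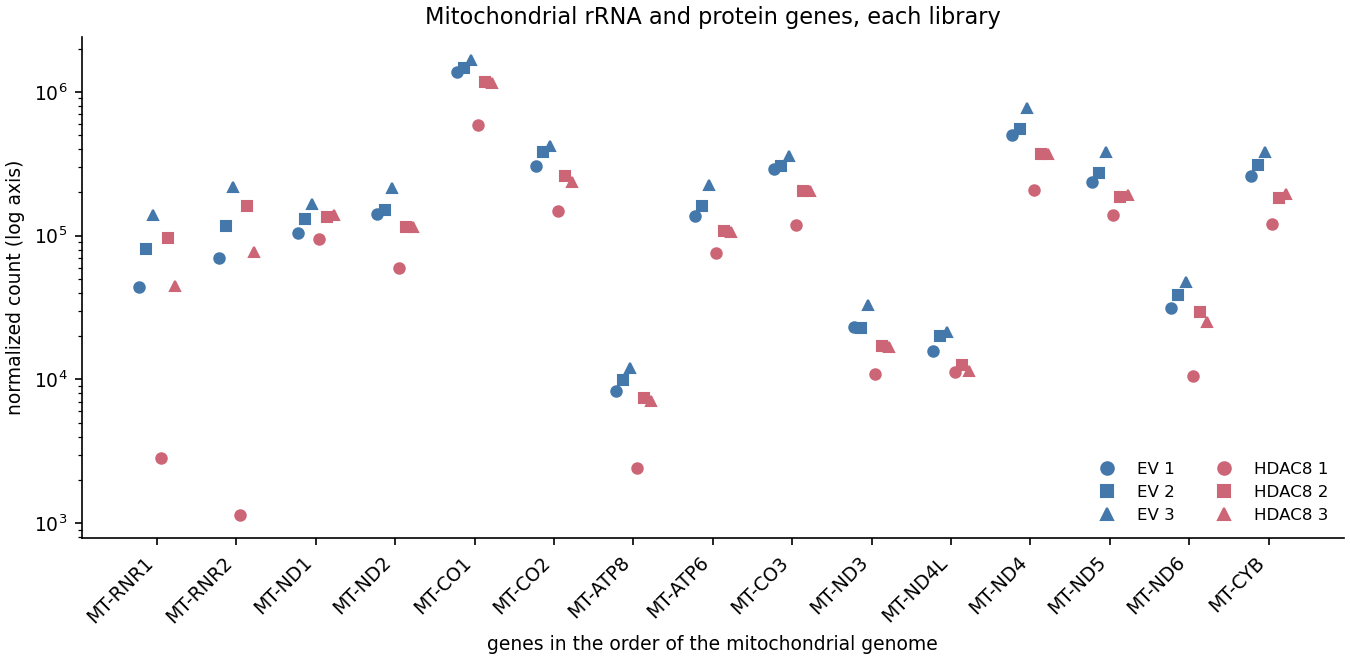
Normalized counts (vertical log axis, not divided by length) of the rRNA and protein genes in genome order, with 1 point for each of the 6 libraries. HDAC8 1 is the lowest point of every gene, farthest for the rRNAs, and the HDAC8 points of MT-ND1 overlap those of EV.

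Ordered by normalized counts per kilobase of gene, the EV means ran from 975922 ± 100505 (SD, n = 3) for MT-CO1 through MT-CO2, MT-ND4, MT-CO3, MT-CYB, MT-ATP6, MT-ND5, MT-ND2 and MT-ND1 to the rRNAs, and then over MT-ND3, MT-ND6 and MT-ND4L to 48779 for MT-ATP8. Of neighbours in this order, MT-CO1 and MT-CO2, and MT-CO3 and MT-CYB, had EV ranges that did not overlap, while all other neighbours overlapped. In HDAC8 the order was the same down to MT-ATP6 and from MT-ND3 on. MT-ND1 moved from position 9 to 7, ahead of MT-ND5 and MT-ND2, and the rRNAs changed places. Division by the full length understates short genes, since fewer fragments can lie inside them.

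The 13 protein genes can also be read library by library, relative to the EV mean. The median log2 deviation from the EV mean over the 13 genes was -0.28, -0.05 and 0.29 in EV and -1.35, -0.60 and -0.64 in HDAC8. Among the HDAC8 libraries, the SD over the 13 genes was 0.414 in HDAC8 1, 0.204 in HDAC8 2 and 0.210 in HDAC8 3. In each HDAC8 library the highest of the 13 deviations was that of MT-ND1 (-0.49, 0.00 and 0.05).

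The composition within the mitochondrial counts differed as well, with a larger part for MT-ND1 in HDAC8. It made up 3.04%, 3.42% and 3.52% of the mitochondrial protein-gene counts in EV and 5.99%, 4.79% and 4.9997% in HDAC8. Every HDAC8 library was above every EV library, with or without HDAC8 1. The exact permutation test gave p = 0.10, and 0.33 after Benjamini-Hochberg adjustment over 13 genes. Taken as a share of all mitochondrial counts, MT-ND1 also had an exact permutation p of 0.10, and 0.85 after adjustment over 17 measures. The ratio of MT-ND1 to MT-ND2, the next protein gene downstream, was 0.735, 0.867 and 0.768 in EV and 1.61, 1.17 and 1.21 in HDAC8. The shares of MT-ND4, MT-CO3 and MT-CYB in the protein-gene counts also separated the groups, in the opposite direction. Since these shares add up to a fixed total, a rise of 1 gene lowers others, and the opposite direction is not a separate result. The share of MT-CO1 rose by 2.07 percentage points with overlapping groups, and by 3.55 without HDAC8 1, where the groups did not overlap. As shares of all mitochondrial counts, rRNAs included, MT-ND1 and MT-ND4 still separated the groups, while MT-CO3 and MT-CYB overlapped. Of the protein-gene counts alone, MT-ND4 made up 14.5%, 14.5% and 16.5% in EV and 13.04%, 13.3% and 13.4% in HDAC8. On this protein-gene measure the difference was -1.89 percentage points for MT-ND4 (-1.78 without HDAC8 1) and 1.93 for MT-ND1 (1.57 without HDAC8 1).

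Log2 fold changes were also fitted with other size factors. Scaled to all mitochondrial counts, MT-ND1 was the 1 member called (0.68, DESeq2 adjusted p = 0.0499), against 32.8% of all genes called higher, 0.944% lower and 33.7% in either direction. With size factors set from the summed mitochondrial protein counts, which takes out the common fall, MT-ND1 was again the 1 member called, and it was higher. Its log2 fold change on this scale was 0.66 (SE 0.25, DESeq2 adjusted p = 0.0296). On the same scale 36.9% of all genes were called higher, 1.08% lower and 38.0% in either direction, since the scaling moved the median of all genes to 0.82. With this scaling to the protein counts, the call was lost without EV 1 (0.60, DESeq2 adjusted p = 0.125), EV 2 (0.68, adjusted p = 0.120), EV 3 (0.70, adjusted p = 0.116) or HDAC8 1 (0.56, adjusted p = 0.00175, under the size threshold), while the direction held throughout.

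**Figure D4:**
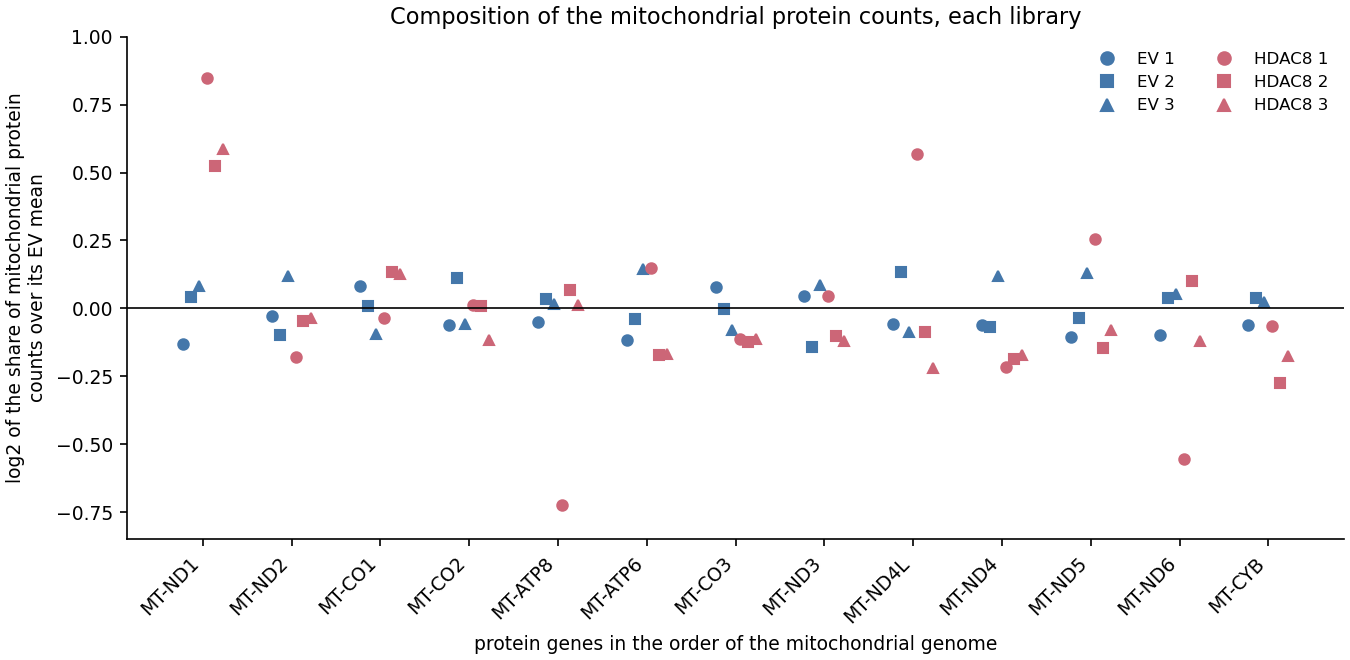
Log2 of each protein gene's share of the mitochondrial protein counts over its EV mean (vertical axis), with 1 point per library and genes in genome order. The 3 MT-ND1 points of HDAC8 lie above those of EV, while MT-ATP8 and MT-ND6 are lowest and MT-ND4L is highest in HDAC8 1.

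Along the genome, the fold changes were lower toward the end of the plus-strand transcript. Spearman's rho between gene order and log2 fold change was -0.52 over the 12 plus-strand protein genes and -0.85 without HDAC8 1. Without MT-ND1 it was -0.38 over 11 genes, and -0.81 without HDAC8 1. This is a description, since the genes share libraries and a precursor RNA. The order was not strict. Without HDAC8 1, MT-ND2, the second protein gene, stood at 67.4% of EV, MT-CO1, the third, at 76.8%, MT-CO2 at 67.4%, MT-ATP8 at 71.6% and MT-CYB, the last, at 59.6%.

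Reads may also be shared with copies of mitochondrial DNA in the nuclear genome. The table held 388 such pseudogenes, of which 81 could be tested (median log2 fold change -0.84) and 51 had an adjusted p. Among those 51, 5 were called lower and none higher, where 5.44% of all genes with an adjusted p were called lower. The summed counts of all 388 were 0.0634%, 0.0668% and 0.0810% of all counts in EV and 0.0275%, 0.0521% and 0.0467% in HDAC8, moving with the mitochondrial genes. Of 50-base windows, 49.5% of those of MT-CO1, 46.7% of those of MT-ATP6 and 43.6% of those of MT-ND2 also occurred in a nuclear copy. For MT-ND1 the share was 22.1%, and its copy MTND1P23 held at most 0.0335% of the MT-ND1 counts. Of the 5 copies with the highest mean counts, MTATP6P1 fell by 0.84 on the log2 scale (SE 0.22, DESeq2 adjusted p = 0.00259) and was not called without HDAC8 1 (-0.59, DESeq2 adjusted p = 0.143). MTND2P28 (-0.59), MTCO1P12 (-0.46), MTCO1P40 (-0.26) and MTCYBP37 (-0.83) did not pass the test. MTATP6P1 held 9.02% to 13.3% of the MT-ATP6 counts, and no other copy compared held as large a share of its gene. MT-ND3, MT-ND4L, the rRNAs and the tRNAs shared no window with these 388 pseudogenes. The pseudogenes were picked by symbol and gene type, and nuclear sequences under other names were not searched.

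The nuclear genes of the same complexes were counted against the 5.44% of all genes called lower. Of the tested nuclear subunits, 0 of 37 of complex I, 0 of 9 of complex III, 1 of 11 of complex IV and 2 of 18 of complex V were called lower, and none higher, with median log2 fold changes of -0.07, -0.35, -0.23 and -0.26. The called genes were COX7C, a small subunit of cytochrome c oxidase (-0.77, SE 0.17, and -0.90 without HDAC8 1), ATP5F1C, the central stalk subunit of ATP synthase (-1.03, SE 0.21, and -0.81 without HDAC8 1), and ATP5F1E, a further stalk subunit (-0.61, SE 0.16, and -0.62 without HDAC8 1). Without HDAC8 1 the counts were 1, 1, 2 and 3 lower, where 6.65% of all genes were called lower. The summed normalized counts of the nuclear subunits of complex V were 66219 to 72076 in EV and lower in every HDAC8 library (53736 to 58878), and without HDAC8 1 those of complexes I, III and IV were below EV as well. The lists were written from general knowledge of the complexes.

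The balance between both genomes was given by the log2 ratio of summed mitochondrial to summed nuclear subunit counts of each complex. For complex I it was 4.26, 4.27 and 4.81 in EV and 3.10, 4.04 and 4.05 in HDAC8, a difference of -0.72 (-0.41 without HDAC8 1). For complex III it was 3.50, 3.63 and 3.97 in EV and 2.38, 3.31 and 3.34 in HDAC8 (-0.69, and -0.38 without HDAC8 1). For complex V it was 1.13, 1.24 and 1.82 in EV and 0.42, 1.05 and 1.08 in HDAC8 (-0.55, and -0.34 without HDAC8 1). In these complexes all HDAC8 libraries were below all EV libraries (exact permutation p = 0.10 each, 0.13 after adjustment over 4 complexes). For complex IV the groups overlapped, with 5.95, 5.82 and 6.24 in EV and 4.74, 5.90 and 5.79 in HDAC8 (-0.53, and -0.16 without HDAC8 1, exact permutation p = 0.20). This depended on the way of summing. Taken by the median gene of each complex in place of the sum, the differences were -0.45, -0.65, -0.54 and -0.63 for complexes I, III, IV and V, and the groups overlapped in I, III and V (exact permutation p = 0.40, 0.20 and 0.20) but not in IV (exact permutation p = 0.10).

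**Figure D5:**
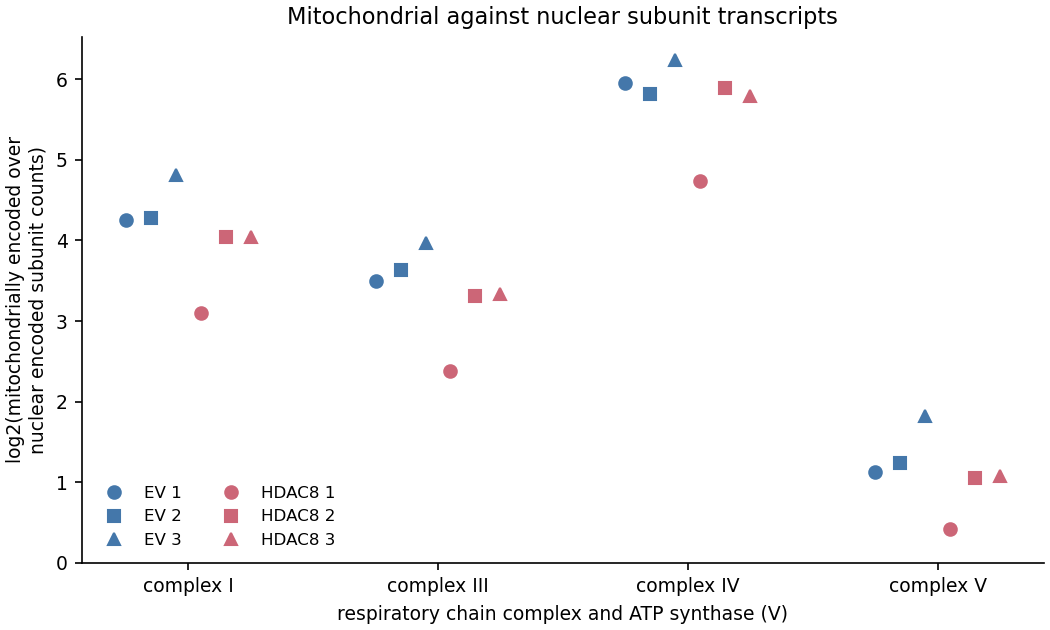
Log2 ratio of summed mitochondrially encoded to summed nuclear encoded subunit counts (vertical axis) for complexes I, III, IV and V, with 1 point per library. HDAC8 1 is lowest in every complex, and HDAC8 2 lies within the EV range in complex IV.

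Nuclear factors that act on mitochondrial DNA and RNA were likewise set against the 5.57% of all genes called higher and the 5.44% called lower. Among 19 transcription and replication factors, 2 rose and none fell. POLRMT, the mitochondrial RNA polymerase, was at 2313, 2106 and 1580 normalized counts in EV and 4883, 2459 and 2808 in HDAC8. It rose by 0.76 on the log2 scale (SE 0.24) at a DESeq2 adjusted p of 0.019, and without HDAC8 1 the value was 0.40 and no longer called (adjusted p = 0.147). TOP3A, a topoisomerase used by nuclear and mitochondrial DNA, rose by 0.87 (0.89 without HDAC8 1). TFAM, which packages mitochondrial DNA and starts its transcription, was at 3207, 2572 and 3071 in EV and 1919, 3624 and 2627 in HDAC8 and did not pass the test (-0.12, adjusted p = 0.854).

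Among 26 RNA processing factors, 2 rose and none fell. ELAC2, which cuts the 3′ end of tRNAs, was at 2482, 2538 and 2418 in EV and 4576, 3738 and 4313 in HDAC8, a log2 rise of 0.76 (DESeq2 adjusted p = 1.85e-05) that was also called without HDAC8 1. MRM3, a methyltransferase of the 16S rRNA, rose by 0.99, and without HDAC8 1 it was not called (0.78, DESeq2 adjusted p = 0.0972). Among 20 stability and translation factors, PTCD1 rose (0.67, not called without HDAC8 1) and FASTKD1 fell (-0.58, and -0.53 without HDAC8 1, under the size threshold). LRPPRC, which binds and stabilises mitochondrial mRNAs, was at 16308, 13518 and 16384 in EV and 9943, 13220 and 12663 in HDAC8. All HDAC8 libraries were below all EV libraries, and the log2 fold change of -0.37 (-0.25 without HDAC8 1) was not called (DESeq2 adjusted p = 0.090).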

How the data were processed

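RNA-seq reads of 6 WM164 libraries were trimmed with Trimmomatic, aligned with STAR and quantified with RSEM by the authors. The deposited values are expected counts per gene, not scaled between libraries. Genome build, annotation and strand setting are not given in the sources used here, and the labels and the methods name different RNA kits. Genes without a symbol (3508, at most 0.102% of counts) were kept. Counts were rounded, genes whose 6 values summed to at least 10 were kept (26162), and both groups were compared in DESeq2 1.42.0 (R 4.3.3) with its Wald test, two-sided and without covariates. Called genes changed by 0.58 or more on the log2 scale at an adjusted p (Benjamini-Hochberg) under 0.05. Of the 37 members, 17 passed this count minimum (13 protein, 2 rRNA and 2 tRNA genes, the last without an adjusted p). Size factors ran from 0.918 to 1.17, and the floor of 3 counts was 2.57 to 3.27 normalized counts. Intervals are at 95% and include the spread between libraries, while the floor covers counting error only. Shares and ratios per library were compared by exact permutation tests. Positions came from GENCODE release 44 (GRCh38), matched by gene ID for 37 of 37 members. Named were all protein and rRNA genes, called list genes whose normalized counts averaged 50 or more (at most 6 a list), TFAM, POLRMT, LRPPRC, HDAC8 and the 5 nuclear copies with the highest mean counts. MT-TA, MTND1P23, single marker genes of cell types and the RNAs that set HDAC8 1 apart were picked after values were seen. Members and lists were chosen with earlier results of these data known. Alternatives were edgeR 4.0.16, limma-voom (limma 3.58.1), other count filters and scalings, a replicate block and each library left out. The fits were tested on simulated data.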

Additional observations from a re-analysis of the deposited data

How the results depend on the processing

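The number of protein genes called lower (9) ranged from 5 to 10 when a library was left out, with 5 without HDAC8 1 and 7 without EV 3. Under edgeR it was 11, without MT-CO1, and under limma-voom 12. Scaling to the summed mitochondrial counts or to the mitochondrial protein counts called 0 lower and 1 higher (MT-ND1), and moved the median of all genes to 0.84 and 0.82.

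With a replicate block, 12 protein genes were called lower (all but MT-ND1). Libraries with the same replicate number did not deviate together (correlations -0.03, -0.07 and 0.04 over 14451 genes), so the numbers were not read as pairs. Under the block no factor of mitochondrial DNA or RNA was called lower (0, against 1), and 8 nuclear copies were (against 5).

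On the scale of the summed mitochondrial counts and of the protein counts respectively, the log2 fold changes turned positive for MT-ND1 (0.68 and 0.66), MT-CO1 (0.084 and 0.076), MT-ND4L (0.15 and 0.13) and MT-ND5 (0.040 and 0.021). On the first of these scales so did FASTKD1 (0.25), LRPPRC (0.42), TFAM (0.62), HIST1H1C (0.27), COX7C (0.11), ATP5F1E (0.21), MTCO1P12 (0.33), MTCO1P40 (0.60) and MTCYBP37 (0.023). These scalings move all genes alike, and each of these values lies below the moved median. MT-ND1 ranged from -0.28 to 0.055 with a library left out, turning positive without EV 3 (0.055) or HDAC8 1 (0.025). TFAM ranged from -0.37 to 0.082, with 0.082 without HDAC8 1.

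Factors called higher (5) ranged from 2 to 5 with a library left out, with 2 without EV 3 and 3 without EV 1. Factors called lower (1) ranged from 0 to 2 and were 0 under limma-voom and with size factors from total counts. Nuclear subunits called lower (3) ranged from 2 to 7, with 7 without HDAC8 1. Nuclear copies called lower (5) were 3 under edgeR and ranged from 2 (without EV 3) to 10 (without HDAC8 3). The causes were not tested.

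With 3 libraries in each group, per-library measures cannot reach a p under 0.10 and so say nothing of their stability, and the tRNA genes lie at the floor. The pseudocount alternative did not apply to counts.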
